A study of Drosophila melanogaster with 2 samples.

Results

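The cuticle protein genes of *Drosophila melanogaster* were examined for peaks of GFP-tagged CG9817. They were taken as the protein-coding genes on the major chromosome arms whose symbol begins with Cpr and a digit, Ccp84, Lcp, Pcp, Edg, Acp65 or Twdl. This naming rule, which uses no measured value, gave 122 of the 13945 protein-coding genes: 70 Cpr, 25 Twdl, 15 Lcp, 7 Ccp84, 3 Edg, 1 Pcp and 1 Acp gene. They lay on arms 3L (47 genes), 3R (33), 2R (27), X (8) and 2L (7), with none on chromosome 4. Tubby (Tb), a Tweedle gene listed under its mutant name, fell outside the rule.

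The data are ChIP-seq peak lists from whole embryos aged 10 to 24 h of a transgenic line that stably carries CG9817, listed in the labels under CG43347 as well, with GFP at its C-terminus. The chromatin was precipitated with an antibody against GFP. The 2 samples are biological replicates, numbered 1 and 3, of this 1 group, so no treatments or genotypes were compared. The lists read were the peaks of each replicate (30000 each), the peaks of the pooled replicates (30000), and an IDR-thresholded list of 5038 peaks. IDR (irreproducible discovery rate) is meant to keep peaks whose rank is repeatable. The 5038 IDR-thresholded peaks were exactly the 5038 strongest peaks of the pooled list by the signal the authors deposited. The scale of that signal is not stated, so it was used to rank peaks within a list, and the depth of the libraries is unknown from peaks alone. A promoter peak here is one whose summit lies within 500 bp of any annotated transcription start site (TSS) of a gene. In whole embryos, a peak that is strong in few cells and a peak that is weak in many cells cannot be told apart.

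Cuticle proteins are secreted by epidermal cells and bind or surround chitin fibres to build the exoskeleton. Most Cpr, Lcp, Pcp and Acp proteins carry the chitin-binding Rebers and Riddiford consensus, whereas the Tweedle (Twdl) proteins form a separate insect family. The genes are short, many arose by tandem duplication, and different members are switched on for the larval, pupal and adult cuticles, under control of ecdysone and the nuclear receptors it induces. The first larval cuticle is laid down late in embryogenesis.

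Core promoters of 7 members and of 3 bound genes that flank a cuticle cluster were read for the TATA hexamer that most members hold. Each sequence below is the genomic strand of the gene read 5′ to 3′ from 45 bases before its start site to 15 bases into the transcript, taken from the release 6 assembly, and capitals mark a TATAAA hexamer starting between 45 and 20 bases before the TSS. The first group are Edg84A (chr3R:6684400-6684459, plus strand), Edg91 (chr3R:17611497-17611556, minus), Edg78E (chr3L:21297789-21297848, minus), Pcp (chr2L:7021637-7021696, plus), Acp65Aa (chr3L:6152731-6152790, minus) and TwdlM (chr3R:26619073-26619132, plus), and Cpr67Fb (chr3L:10894128-10894187, plus) is the member with the strongest promoter peak.
Edg84A: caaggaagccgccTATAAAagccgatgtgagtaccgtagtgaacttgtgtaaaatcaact
Edg91: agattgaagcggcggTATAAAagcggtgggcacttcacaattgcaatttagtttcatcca
Edg78E: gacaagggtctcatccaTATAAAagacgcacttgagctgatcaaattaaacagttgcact
Pcp: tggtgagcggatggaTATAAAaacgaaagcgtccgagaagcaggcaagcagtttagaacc
Acp65Aa: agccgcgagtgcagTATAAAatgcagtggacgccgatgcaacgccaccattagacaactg
TwdlM: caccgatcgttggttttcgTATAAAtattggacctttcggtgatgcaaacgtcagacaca
Cpr67Fb: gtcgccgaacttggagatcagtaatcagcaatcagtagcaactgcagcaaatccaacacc
Of these 7 members, 6 hold the hexamer in that window, as do 75 of all 122 members (61.5%). In Cpr67Fb a TATAAA starts at position -58 instead, outside the printed bases. The next group are start sites of genes that flank a cuticle cluster and carry an IDR-thresholded promoter peak: CG11309 (chr3L:21304644-21304703, minus), pzg, the chromatin protein Putzig (chr3L:21286054-21286113, plus), and Aps (chr3L:10899109-10899168, minus). None of the 3 holds the exact hexamer TATAAA at that position, although Aps has the run TATATATA there. The gene if, which also flanks a cluster and carries such a peak, is not shown.
CG11309: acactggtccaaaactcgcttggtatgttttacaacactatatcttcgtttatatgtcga
pzg: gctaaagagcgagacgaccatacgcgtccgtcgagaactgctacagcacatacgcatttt
Aps: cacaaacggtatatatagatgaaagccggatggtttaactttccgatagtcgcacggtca

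None of the 122 cuticle protein genes had a promoter peak in the IDR-thresholded list (0%, 95% Wilson interval 0 to 3.05%), against 3309 of all 13945 protein-coding genes (23.7%). Such intervals cover counting error over genes, which are not replicates. The result was the same in each replicate: 0 members had a promoter peak among the 5038 strongest peaks of replicate 1, against 26.8% of all coding genes, and 0 among the 5038 strongest of replicate 3, against 21.8%. For scale, chemoreceptor and odorant-binding protein genes had an IDR-thresholded promoter peak at 3 of 230 genes (1.3%), and cytoplasmic ribosomal protein genes at 69 of 92 (75%).

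Weak promoter peaks were found in the full lists. In the pooled list 32 members had a promoter peak (26.2%, interval 19.2 to 34.7%), against 48.2% of all coding genes. Replicate 1 had 25 members (20.5%), against 53.0% of all coding genes, and replicate 3 had 34 members (27.9%), against 45.4%. Over both lists, 43 members had a promoter peak in either replicate (35.2%, against 60.3% of all coding genes) and 16 had one in both (13.1%, against 38.0%). The 16 shared members were 64.0% of those of replicate 1 and 47.1% of those of replicate 3. For all coding genes, strong peaks included, the shared genes were 71.7% of replicate 1 and 83.8% of replicate 3. Of the 5303 shared coding genes 2054 had no IDR-thresholded promoter peak, whereas none of the 16 members had one. The sharing of weak peaks alone was not compared. Once the 5038 IDR-thresholded peaks were set aside, the weak pooled peaks touched 26.2% of member promoters and 30.0% of all coding promoters, so the weak promoter peaks alone put the members near the background.

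The members entered late along the ranking. Among the strongest 10000 pooled peaks 2 members had a promoter peak (1.64%, against 32.9% of all coding genes), among the strongest 15000 there were 12 (9.84%, against 38.1%), among 20000 there were 18 (14.8%, against 41.7%) and among 25000 there were 27 (22.1%, against 45.4%). The members' strongest promoter peaks ranked from 5299 to 29985 in the pooled list with a median rank of 17189, while the median rank over all coding genes with a pooled promoter peak was 5178. In replicate 1 the best member rank was 5521 and the median 18403, against a median of 4961 over all coding genes. In replicate 3 the best was 7719 and the median 15934, against 5396. No member was among the strongest 5038 peaks of these lists, so the ranks are not separate from that count of 0. From 5038 to 30000 pooled peaks the members rose from 0 to 26.2%, and all coding genes from 23.7% to 48.2%.

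**Figure D1:**
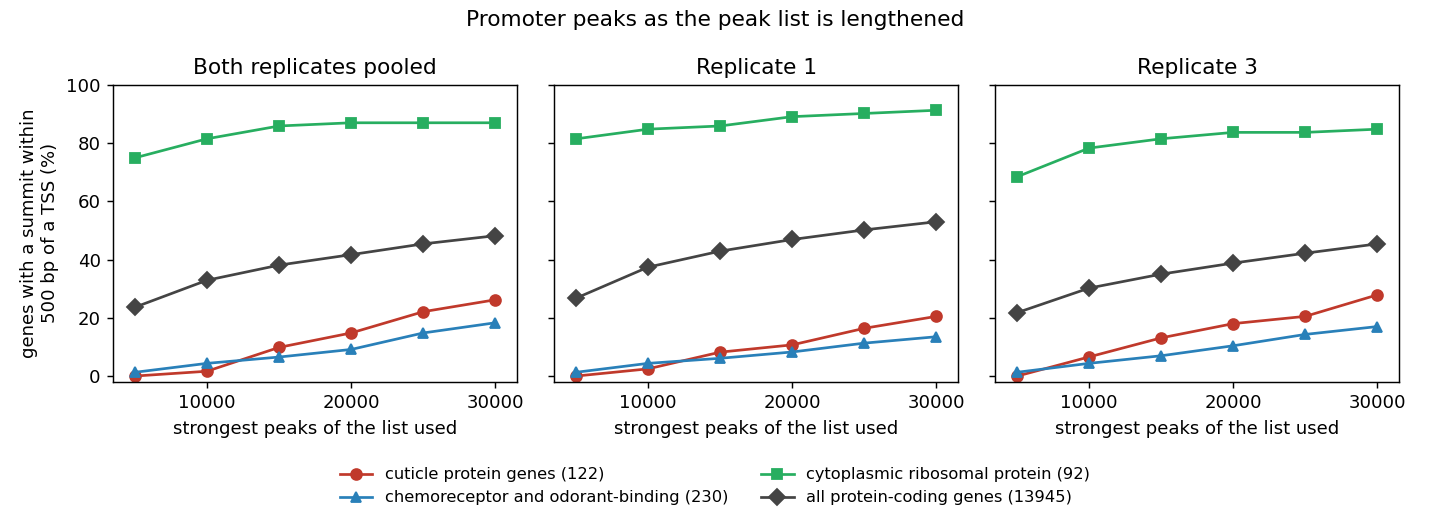
Share of genes (percent, vertical axis) with a summit within 500 bp of a TSS as more of each list's strongest peaks are used (horizontal axis, 5038 to 30000 peaks), in the pooled list and in each replicate, for the cuticle protein genes, all coding genes, and the chemoreceptor and ribosomal protein families. The cuticle protein genes start at 0 in every panel and reach 26.2% in the pooled list, 20.5% in replicate 1 and 27.9% in replicate 3.

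The strongest member promoter peak belonged to Cpr67Fb, a chitin-binding cuticle protein gene on 3L. Its peak (chr3L:10893529-10893878) had a deposited signal of 123 in the pooled list, and its promoter peaks had 47.9 in replicate 1 and 49.7 in replicate 3. Rank 5299 placed it just outside the IDR-thresholded list, whose weakest peak had a signal of 129. These strongest summits lay 469 bp upstream of the TSS in the pooled list, 449 bp upstream in replicate 1 and 442 bp upstream in replicate 3. A weaker summit recurred downstream of the TSS, at 247 bp in the pooled list (signal 66.8), 220 bp in replicate 1 (16.7) and 244 bp in replicate 3 (47.9).

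The next members by pooled signal were Cpr49Ad (69.5), Acp65Aa (67.7), Cpr76Bc (61.3), Lcp9 (60.4), Cpr76Ba (58.5), Cpr50Ca (56.7), TwdlE (55.9), Cpr47Ed (55.5) and TwdlP (55.4). Of the 10 strongest, Cpr49Ad, Cpr76Ba and TwdlE had no promoter peak in the list of replicate 1, while replicate 3 gave them signals of 55.3, 50.4 and 49.1. Acp65Aa, an adult cuticle gene, had a signal of 27.8 in replicate 1 and 37.2 in replicate 3, with summits 103 and 113 bp downstream of its TSS. Cpr76Bc had 22.6 in replicate 1 and 47.8 in replicate 3.

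The 16 members with a promoter peak in both replicates were Cpr67Fb, Acp65Aa, Cpr76Bc, Lcp9, Cpr50Ca, Cpr47Ed, TwdlP, Cpr65Ax1, Cpr65Aw, Cpr65Ea, Cpr78Cc, Cpr78Cb, Cpr65Av, Cpr100A, Cpr57A and Cpr65Au. All 16 also had a pooled promoter peak. Sharing a promoter peak did not always mean sharing a summit. Where a gene had several promoter summits in a replicate, the pair closest to each other lay within 100 bp at 9 of the 16 members (56.2%), against 85.9% of all coding genes with a promoter peak in both replicates and 67.1% of those without an IDR-thresholded promoter peak. The strongest promoter summits of the replicates lay within 100 bp of each other at 6 of the 16 members (37.5%), namely Cpr67Fb (7 bp apart), Acp65Aa (10 bp), TwdlP (24 bp), Cpr65Ea (48 bp), Cpr65Ax1 (59 bp) and Cpr47Ed (77 bp). The same was seen at 78.5% of all coding genes with a promoter peak in both replicates, and at 54.1% of those without an IDR-thresholded promoter peak. The median gap was 135 bp for the members, against 29 bp for all coding genes and 83 bp for those without an IDR-thresholded promoter peak.

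At Lcp9, a larval cuticle gene, the replicates shared an upstream summit, at 420 bp in replicate 1 (signal 25) and 448 bp in replicate 3 (38.1), the position of the pooled summit. The upstream peaks of the pooled list and replicate 1 were also promoter peaks of CG3594, the head-to-head neighbour of Lcp9. Replicate 3 also had a somewhat stronger summit 482 bp downstream (41.3), which was a promoter peak of egg as well. It was the replicate 3 peak that matched the IDR-thresholded peak at the start of the neighbouring gene egg. The summit of that IDR-thresholded peak lay 521 bp downstream of the Lcp9 TSS, just outside the promoter window. Cpr78Ca had the weakest pooled promoter peak of the members (signal 36.9, rank 29985) and was the member whose promoter peak appeared in the pooled list only.

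Of the 9 genes by which these families were first known, 3 had a promoter peak in the pooled list, 1 in replicate 1 and 4 in replicate 3. The shares over all coding genes were 48.2%, 53.0% and 45.4%. The larval cuticle genes Lcp2 and Lcp4, the pupal gene Pcp and the ecdysone-dependent genes Edg78E and Edg84A had no promoter peak in any list. Lcp1 had one in replicate 3 only (signal 27.4, 233 bp downstream of the TSS). Lcp3 had one in the pooled list (43.7) and in replicate 3 (28.3), both 243 bp downstream. Edg91, which encodes a glycine-rich cuticle protein, had one in the pooled list (54.2, 221 bp downstream) and in replicate 3 (48.4, 176 bp downstream), and none in replicate 1. Acp65Aa had one in every full list.

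Family by family, promoter peaks in the pooled list were present at 20 of 70 Cpr genes (28.6%), 7 of 25 Twdl genes (28.0%), 3 of 15 Lcp genes, 1 of 3 Edg genes and the 1 Acp gene, and at 0 of the 7 Ccp84 genes and 0 of the 1 Pcp gene, against 48.2% of all coding genes. Promoter peaks in both replicates were present at 13 Cpr genes, 1 Lcp gene (Lcp9), 1 Twdl gene (TwdlP) and Acp65Aa, against 38.0% of all coding genes. The 8 members on the X had none in the pooled list, and Cpr11B alone of these had one in replicate 3 (signal 30.3, 466 bp downstream).

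Where the members did have a weak promoter peak, its summit tended to lie past the TSS. The strongest pooled promoter summit was downstream of the TSS at 20 of 32 members (62.5%), with a median of 151.5 bp downstream. Among the 4178 coding genes with a pooled promoter peak outside the IDR-thresholded list it was downstream at 38.9%, with a median of 49 bp upstream. IDR-thresholded promoter summits over all coding genes were downstream at 8.92%, with a median of 135 bp upstream. The size of the shift differed between the replicates. In replicate 1 the summits were downstream at 15 of 25 members with a median of 21 bp downstream, and in replicate 3 at 24 of 34 (70.6%) with a median of 226.5 bp downstream. Over all coding genes, with the 5038 strongest peaks of each replicate set aside, 38.1% were downstream in replicate 1 and 40.5% in replicate 3, with medians of 49 and 50 bp upstream. No member promoter peak was among those strongest peaks.

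**Figure D2:**
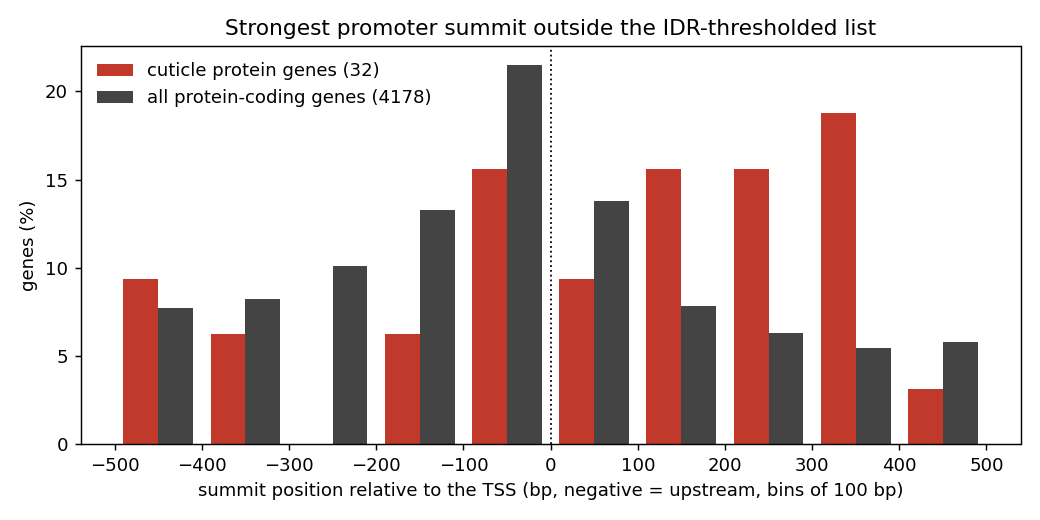
Position of the strongest promoter summit outside the IDR-thresholded list relative to the TSS (horizontal axis, bp, negative upstream, bins of 100 bp) as a share of genes (vertical axis, percent), for the 32 cuticle protein genes and the 4178 coding genes that have one. The members' median lies 151.5 bp downstream of the TSS in this pooled list (21 bp in replicate 1 and 226.5 bp in replicate 3) and that of all coding genes 49 bp upstream.

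Of the 32 member summits, 15 fell in coding sequence (46.9%), 11 in intergenic sequence, 4 in a 5′ UTR and 2 in an intron. Over the 4178 coding genes with a weak pooled promoter peak, 16.4% fell in coding sequence. Gene structure also differed: the members had a median length of 954.5 bp, against 2166 bp for all coding genes. Of the members, 91.0% had 1 TSS, against 73.5% of all coding genes. Among 796 coding genes that had a weak pooled promoter peak, 1 TSS, a length of up to 2000 bp and no opposite-strand neighbour starting within 1000 bp upstream, 47.9% of summits were downstream and 39.2% in coding sequence. The part of gene length in the members' summit position was not tested.

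Head-to-head gene pairs, whose genes made up 2170 of the 3309 coding genes with an IDR-thresholded promoter peak, were uncommon among the members. An opposite-strand coding TSS lay within 1000 bp upstream of 13 members (10.7%), against 36.2% of all coding genes. Of the 13, 8 were paired with another member, as Lcp2 with Lcp3, Cpr65Aw with Lcp65Ad and Ccp84Ad with Ccp84Ae, and none of the 13 had a partner with an IDR-thresholded promoter peak. Over all coding genes, 43.0% of those in such pairs had an IDR-thresholded promoter peak and 12.8% of the others. In the stratum closest to the members' structure, with 1 TSS, no such partner and a length of up to 2000 bp, 0 of 89 members had an IDR-thresholded promoter peak, against 215 of 3936 coding genes (5.46%), and 21 members had a pooled one (23.6%), against 25.1%.

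The distance to the nearest strong peak was also read, without a promoter window. Promoter peaks count in this distance, so it is not separate from the counts above. The nearest IDR-thresholded summit was 521 to 60498 bp from a member's TSS, with quartiles of 6878 and 21957 bp and a median of 14244 bp, against a median of 5620 bp for all coding genes. It was over 10 kb away for 77 members (63.1%, against 36.3% of all coding genes) and over 20 kb away for 39 (32%, against 19.9%). The chemoreceptor and odorant-binding protein genes had a median of 12947 bp. With all pooled peaks the median was 1579.5 bp for the members, against 573 bp for all coding genes.

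**Figure D3:**
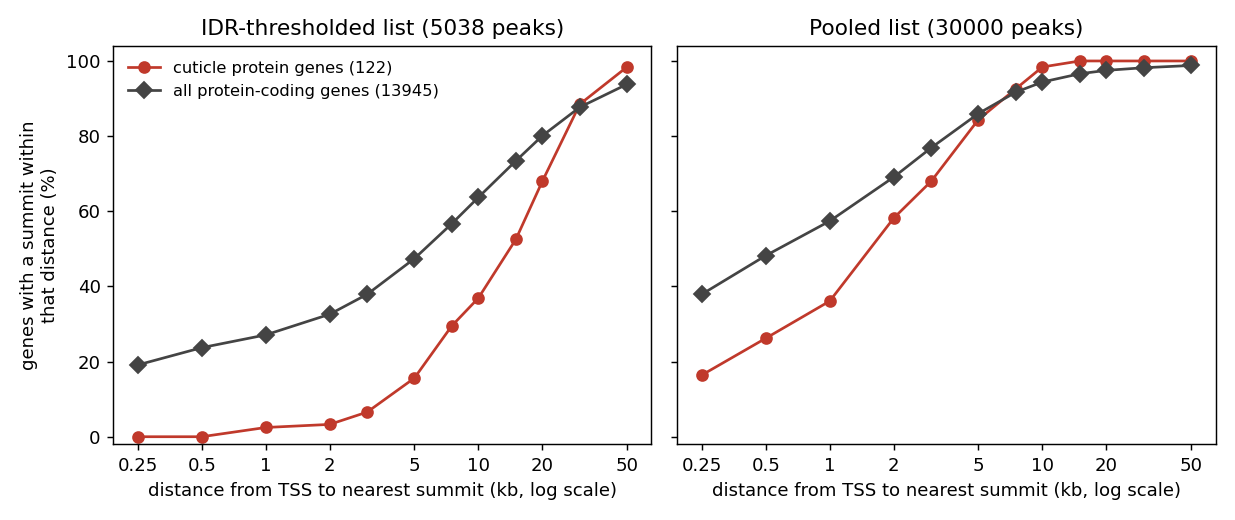
Share of genes (vertical axis, percent) with a summit within a given distance of their TSS (horizontal axis, kb, log scale) in the IDR-thresholded list and in the pooled list, for the cuticle protein genes and all coding genes. For the IDR-thresholded list the cuticle protein genes have a median distance of 14244 bp, against 5620 bp for all coding genes.

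The nearest IDR-thresholded peak was shared by neighbours, so the 122 members had 52 distinct nearest peaks, the most shared of which served 12 Twdl genes. By the place of that peak, 57 members had it at another coding gene's promoter, 36 in an intron, 21 in intergenic sequence, 7 in coding sequence and 1 at a noncoding start. It was upstream of the member for 60 genes and downstream for 62.

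Only 3 members had an IDR-thresholded summit within 1 kb, and 19 within 5 kb. The nearest was at Lcp9, where the summit lay 6 bp upstream of the TSS of egg, which encodes a histone H3 lysine methyltransferase. At Cpr73D the summit lay 766 bp downstream of the TSS, in an intron of both Cpr73D and the mitochondrial dehydrogenase gene Ogdh, 516 bp upstream of the nearest of several Ogdh start sites, with signals of 282 in the pooled list, 78.7 in replicate 1 and 195 in replicate 3. At Cpr65Ay it lay 910 bp past the member's TSS and 343 bp upstream of CG13297, with signals of 209, 84.4 and 116 in the pooled list, replicate 1 and replicate 3. Each of these 3 summits was nearer to the start of another gene than to that of the member. The farthest members were TwdlT (60498 bp), Cpr50Ca (52465 bp), Cpr49Ad (44246 bp), Cpr49Ac (41805 bp) and Cpr5C (40585 bp). Among them Cpr50Ca, Cpr49Ad and TwdlT nevertheless had weak pooled promoter peaks. The IDR-thresholded peak nearest to Cpr5C had a match in the list of replicate 1 and none in that of replicate 3.

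The next nearest peaks, at Cpr76Ba and Cpr65Eb, lay in intergenic sequence, and for both the nearest coding TSS was that of a cuticle gene. Downstream of Cpr76Ba, 1605 bp from its TSS, stood the strongest peak near any of these 5 members, with a pooled signal of 1218 (rank 207 of 30000), 619 in replicate 1 (rank 132) and 601 in replicate 3 (rank 301). Upstream of Cpr65Eb by 2180 bp, and upstream of Cpr65Ec by 2237 bp, a peak between the pair had a pooled signal of 166 (rank 3925), 79.3 in replicate 1 and 94.1 in replicate 3. The Cpr76Ba peak ranked high in both replicates, and the Cpr65Eb peak was in the lower part of the IDR-thresholded list. The 151 bases centred on each summit, with the Cpr65Ay peak for comparison, are given on the plus strand of release 6. Capitals mark CAGCTG and GAGAG, searched on both strands; in the Cpr65Ay window they overlap by a base. The windows are chr3L:19516652-19516802 for Cpr76Ba, chr3L:7090892-7091042 for Cpr65Eb and chr3L:6157645-6157795 for Cpr65Ay, and none holds annotated exon sequence.
Cpr76Ba peak: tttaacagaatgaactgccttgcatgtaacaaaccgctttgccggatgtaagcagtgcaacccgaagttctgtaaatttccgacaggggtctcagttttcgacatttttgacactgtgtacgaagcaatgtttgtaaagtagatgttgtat
Cpr65Eb peak: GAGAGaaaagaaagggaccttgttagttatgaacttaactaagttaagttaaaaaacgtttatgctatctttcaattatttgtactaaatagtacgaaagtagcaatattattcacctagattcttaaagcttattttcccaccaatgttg
Cpr65Ay peak: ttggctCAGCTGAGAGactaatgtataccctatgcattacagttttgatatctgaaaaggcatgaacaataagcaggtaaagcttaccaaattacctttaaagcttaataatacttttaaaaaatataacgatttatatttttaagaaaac
The window of the strongest of the 3, near Cpr76Ba, holds neither motif. The Cpr65Eb window is wider than its called peak (chr3L:7090905-7091010), and the GAGAG marked in it lies outside that peak.

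Most members lay in clusters, defined as at least 3 members in a row with gaps of up to 20 kb. There were 15 clusters with 88 members and 243 kb in all, and 34 members stood outside. Inside the clusters there were 3 IDR-thresholded summits, or 12.3 per Mb, against 37.6 per Mb over the major arms. Pooled summits outside the IDR-thresholded list numbered 52 in the clusters (214 per Mb), against 186 per Mb over the arms. With strong and weak peaks together there were 55 pooled summits (226 per Mb), 53 summits of replicate 1 (218 per Mb) and 62 of replicate 3 (255 per Mb), each against 224 per Mb over the arms. Of the 55 pooled summits in clusters, 5.45% belonged to the IDR-thresholded list, against 16.8% of all pooled summits. Members in clusters had a pooled promoter peak in 22 of 88 cases (25%) and members outside in 10 of 34 (29.4%). The share over all coding genes was 48.2%.

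The 3 strong summits lay in the clusters Cpr47Ea to Cpr47Eg, Lcp65Ag3 to Cpr65Az and Cpr65Ea to Cpr65Ec. The last 2 of these summits are those near Cpr65Ay and Cpr65Eb described above. The one in the Cpr47E cluster had a pooled signal of 209, 71.4 in replicate 1 and 131 in replicate 3, and lay 683 bp upstream of TpnC47D, a troponin C gene inside the cluster, and 2476 bp downstream of the TSS of Cpr47Eg. The other 12 clusters held no IDR-thresholded summit, although that of the strong Cpr76Ba peak lay only 825 bp outside Cpr76Ba to Cpr76Bd. Among these 12 clusters, Cpr64Aa to Cpr64Ad, Cpr72Ea to Cpr72Ec and TwdlX to Twdlalpha also had 0 pooled summits. Each of these had 1 or more summits in a replicate list. Lcp1 to Lcp4 and TwdlF to TwdlV had 1 pooled summit each, Cpr67Fa1 to Cpr67Fb had 2, Cpr62Ba to Cpr62Bc had 3, Cpr78Ca to Cpr78Cc had 4, Cpr49Aa to Cpr49Ah and Cpr76Ba to Cpr76Bd had 5 each.

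The largest cluster, Lcp65Ag3 to Cpr65Az, holds 18 members in 31.2 kb (chr3L:6130386-6161589), among them the Lcp65A larval genes and Acp65Aa. In it 6 members had a pooled promoter peak, 5 in replicate 1, 6 in replicate 3 and 5 in both, namely Cpr65Au, Cpr65Av, Cpr65Aw, Cpr65Ax1 and Acp65Aa. Over all coding genes the shares were 48.2%, 53.0%, 45.4% and 38.0%. Its 12 pooled summits compare with 10 in replicate 1 and 12 in replicate 3. The strongest of them outside the IDR-thresholded list (chr3L:6140965-6141314, singled out after the values were seen) lay between Cpr65Av and Cpr65Aw, 1166 bp upstream of the Cpr65Av TSS. It had a pooled signal of 118 (rank 5501), 23.6 in replicate 1 (rank 13302) and 90.7 in replicate 3 (rank 4541), so only replicate 3 had it among its 5038 strongest. Some of these genes are near copies: a stretch of 50 bases found elsewhere in the genome made up over 10% of the positions within 500 bp of the TSS at 8 members, all in this cluster (Lcp65Aa, Lcp65Ab1, Lcp65Ab2, Lcp65Ag1, Lcp65Ag2, Lcp65Ag3, Cpr65Ax1 and Cpr65Ax2), and over 50% at 4 of them. Of those 8, Cpr65Ax1 alone had a pooled promoter peak, and how reads that map to several places were treated is not given in the sources used here. At 106 of the 122 members no such stretch was repeated.

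**Figure D4:**
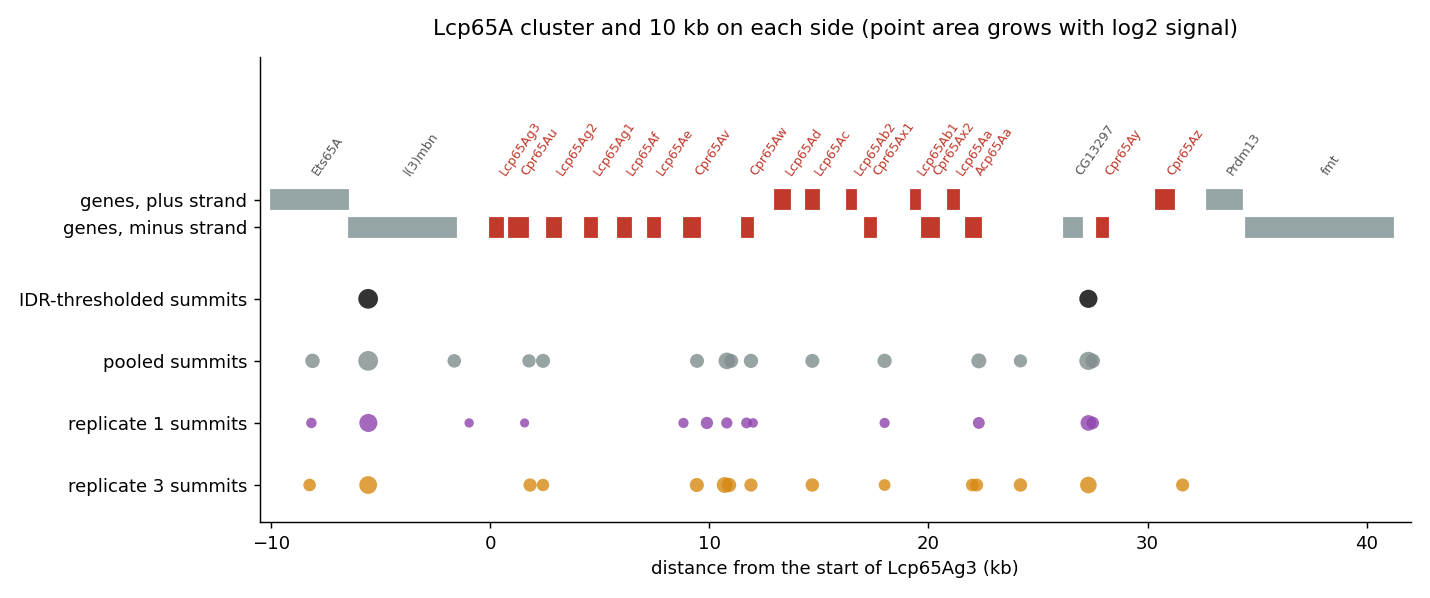
Genes and summits across the largest cluster and 10 kb on each side (horizontal axis, kb from the start of Lcp65Ag3), with members and other coding genes by strand and summits of the IDR-thresholded list, the pooled list and each replicate as points whose area grows with log2 signal. The 1 IDR-thresholded summit inside the cluster lies at 27.3 kb, at CG13297, while weaker summits recur at 10.8, 18.0 and 22.3 kb in the pooled list and in replicate 1.

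The Tweedle cluster TwdlM to TwdlD holds 12 members in 21.9 kb (chr3R:26619118-26641054) and had no IDR-thresholded summit. Of its members 4 had a pooled promoter peak, 3 in replicate 1, 2 in replicate 3 and TwdlP in both. Over all coding genes the shares were 48.2%, 53.0%, 45.4% and 38.0%. TwdlM had a signal of 41.7 in the pooled list and 18.3 in replicate 1, and none in replicate 3. Its 12 members shared as nearest strong peak an intronic summit of beat-VII with a signal of 160 in the pooled list, 38.3 in replicate 1 and 114 in replicate 3. That summit lay 13689 bp beyond the end of the cluster and 1697 bp upstream of Tb.

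The cluster Edg84A to Ccp84Aa, with 8 members in 20.5 kb (chr3R:6684445-6704903), lies in the Antennapedia complex between the Hox genes lab and pb. None of its members had a promoter peak in any of the 4 lists. It held 1 pooled summit, 1 of replicate 1 and 2 of replicate 3. TwdlX to Twdlalpha, on the X, was the other cluster in which none of the members had a promoter peak in the IDR-thresholded or pooled list or either replicate list. Over all coding genes, 8549 of 13945 had a promoter peak in at least 1 of these lists.

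Some genes that border the clusters carried strong promoter peaks. Of the 30 flanking coding genes, which lie at a median gap of 1698.5 bp from the cluster, 4 had an IDR-thresholded promoter peak (13.3%, against 23.7% of all coding genes) and 17 a pooled one (56.7%, against 48.2%). The 4 were CG11309, pzg, Aps and if, the gene of the alpha integrin inflated. The cluster Cpr78Ca to Cpr78Cc lay between a bound gene on each side. The gene body of CG11309 lay 614 bp past the end of the cluster, and the summit of its promoter peak 3403 bp past it. The peak had a signal of 2351 in the pooled list (rank 48), 1262 in replicate 1 and 1094 in replicate 3. That peak was also a promoter peak of CG7632. On the other side a peak shared by pzg, 222 bp upstream of its TSS, and CG12974, 85 bp downstream of a TSS of that gene, had 645 (rank 650), 415 in replicate 1 and 230 in replicate 3. The summit of this shared peak lay 5983 bp from the cluster. Between these flanking peaks, the promoter peaks of Cpr78Cb and Cpr78Cc had pooled signals of 49.6 and 51.0, and Edg78E had no promoter peak. The gene body of Aps lay 83 bp from the end of the Cpr67F cluster, and the summit of its promoter peak 4715 bp from that end. The Aps peak had a pooled signal of 297 (rank 2068), while Cpr67Fb had 123. At the X-linked cluster TwdlX to Twdlalpha, the promoter of goe, a gene that reaches into the cluster, had a peak with a pooled signal of 567, 9130 bp from the TSS of Twdlalpha.

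Promoter sequence was compared over the 300 bases from 250 before to 50 after each gene's TSS. The hexamer TATAAA on the gene strand, starting 45 to 20 bases before the TSS where TATA boxes act, was found at 75 of 122 members (61.5%), against 1229 of 13945 coding genes (8.81%) and 90 of the 3309 coding genes with an IDR-thresholded promoter peak (2.72%). Its start had a median of 29 bases before the TSS and a range of 45 to 22. It was present at 39 of 70 Cpr, 15 of 25 Twdl, 11 of 15 Lcp and 5 of 7 Ccp84 genes, at all 3 Edg genes, and at Pcp and Acp65Aa. Anywhere in the 300 bases TATAAA was found at 73.0% of members, against 32.1% of coding genes.

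Motifs of the DRE, M1BP and E box kinds were found at a smaller share of member promoters than of promoters with an IDR-thresholded peak, and their shares in chemoreceptor and odorant-binding protein genes were 0.435%, 0% and 9.57%, close to those of the members. All were searched on both strands, each on its own, so that overlapping matches count for each motif. TATCGATA, the DNA replication-related element, was found at 1 member (Cpr49Af, 0.82%), against 9.36% of coding genes and 14.7% of those with an IDR-thresholded promoter peak. GGTCACACT, the core of the M1BP motif, was found at 0 members, against 6.05% and 9.19%. CAGCTG, an E box, was found at 12 members (9.84%), against 17.7% and 22.5%. GAGAG, read by GAGA factor, was found at similar shares, namely 30.3% of members, 29.7% of coding genes and 27.8% of those with an IDR-thresholded promoter peak. AACCGGTT, a Grainy head site, was found at 0 members and 0.753% of coding genes, and AAGGTCA, a site of Ftz-f1 and other nuclear receptors, at 0.82% of members and 2.11% of coding genes. The median GC content was 44.0% for members and 38.0% for all coding genes.

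**Figure D5:**
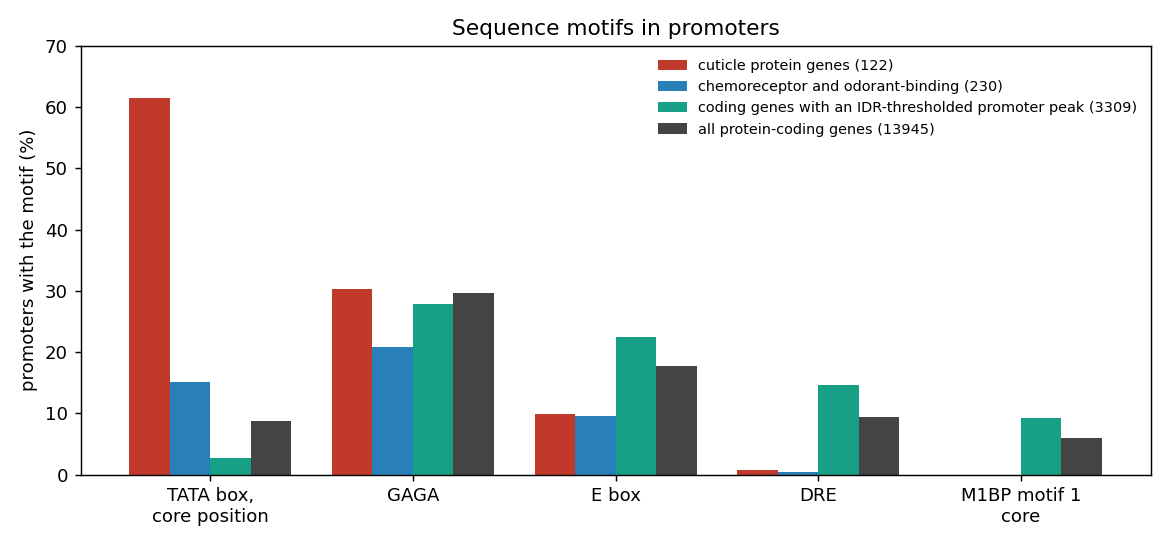
Share of promoters (vertical axis, percent) that hold each motif (horizontal axis: the TATA box at its core position, GAGA, the E box, DRE and the M1BP motif core), for the cuticle protein genes, all coding genes, coding genes with an IDR-thresholded promoter peak, and chemoreceptor and odorant-binding protein genes. The TATA box stands at 61.5% of the cuticle protein promoters, against 8.81% of all coding promoters, and the GAGA bars are of similar height.

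Promoter peaks were split by the TATA hexamer as a description chosen after the data were seen. Members had no IDR-thresholded promoter peak either with the hexamer (0 of 75) or without it (0 of 47). Of all coding genes with it, 7.32% had such a peak, against 25.3% of those without it. In the pooled list 17 of 75 members with it (22.7%) and 15 of 47 without it (31.9%) had a promoter peak, against 31.0% of coding genes with it and 49.9% of those without it. In both replicates 8 of 75 members with it (10.7%) and 8 of 47 without it (17.0%) had one, against 19.3% and 39.8% of coding genes.

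Other genes of cuticle formation were read from a list of 64 symbols, of which 63 matched, covering chitin synthesis and modification, tanning, apical matrix proteins and epidermal and ecdysone-response regulators. An IDR-thresholded promoter peak was present at 6 of 63 (9.52%), against 0 of 122 cuticle protein genes and 23.7% of all coding genes, and a pooled one at 35 (55.6%), against 26.2% of cuticle protein genes and 48.2% of all coding genes. The 6 were the chitinase gene Cht7 (signal 533, summit 209 bp upstream of the TSS), the ecdysone-induced receptor gene Eip75B (498, 38 bp downstream), usp, the partner of the ecdysone receptor (494, 161 bp upstream), the oxidase gene Duox (429, 154 bp upstream), rtv, required for chitin organization (163, 70 bp upstream), and the nuclear receptor gene ftz-f1 (141, 212 bp upstream). The last had a promoter peak in the full list of replicate 1 and none in that of replicate 3, while the other 5 had one in both. The chitin synthase genes kkv and Chs2 and the tanning genes ple, Ddc and e had no IDR-thresholded promoter peak, while Chs2, Ddc and e had weak ones in both replicates. The median length of the 63 genes was 8457 bp and 54.0% had 1 TSS, against 954.5 bp and 91.0% for the members. Among genes with 1 TSS, 2 of 34 (5.88%) had an IDR-thresholded promoter peak, against 0 of 111 members and 18.7% of all coding genes. A pooled one was present at 15 of 34 (44.1%), against 23.4% and 40.5%. The part of gene structure was not tested.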

How the data were processed

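The authors deposited narrowPeak lists on dm6 for 2 biological replicates and for their pool, called against a control, per the deposited notes. The signal used is the value the authors deposited for each peak, and the sources used here name neither its scale nor the peak caller. Each full list holds 30000 peaks, so depth is unknown. Coordinates are 1-based on release 6, the assembly of dm6, and genes and TSSs came from Ensembl release 115 (BDGP 6.54). Promoter sequence was read from the release 6 genome, since the planned promoter table was not used here.

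The members and the other gene lists were chosen with earlier results of these data known. Promoter peaks were those with a summit up to 500 bp from any TSS of the gene. Counts are set beside those over all 13945 coding genes with 95% Wilson intervals, and no tests were made, since there is 1 group. Named members were the 10 with the strongest pooled promoter peak, those with a promoter peak in both replicates, the 5 nearest to and 5 farthest from an IDR-thresholded summit, cluster ends and founding genes; neighbours were named from position, and other genes were named after their values were seen. The TATA position and split, gene structure strata, flanking genes, repeated sequence, summit classes, second summits, replicate offsets and summit gaps, and weak-peak density were chosen after the data were seen. Alternatives were TSS distances of 250 and 1000 bp, 1 gene per peak, the 5′-most TSS, the stronger peaks of each list (2519 or 15000), cluster gaps of 10 and 50 kb, and leaving out each replicate, with the 5038 strongest peaks of the other, or its full list, in place of the combined list. The scripts were tested on simulated data. Python 3.11.15 with numpy 2.4.6, pandas 2.3.3, scipy 1.17.1 and matplotlib 3.10.9 was used.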

Additional observations from a re-analysis of the deposited data

How the results depend on the processing

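Counts were taken as moved when they changed by more than 1.5 times, and the median distance when it changed by more than the SD between replicates (267 bp). By these limits 21 of 30 recomputed values did not move and 9 did, and the cause was not tested. Members with an IDR-thresholded promoter peak numbered 0 under every alternative except a TSS distance of 1000 bp, where there were 3 (against 27.1% of all coding genes). Members with a pooled promoter peak numbered 20 at 250 bp (against 37.9% of all coding genes) and 12 with the stronger 15000 peaks (38.1%), and members with a promoter peak in both replicates numbered 8 at 250 bp (28.8%) and 5 with the stronger 15000 peaks of each (30.9%). With the stronger 2519 IDR-thresholded peaks, 0 clusters held a summit, and the median distance from a member to a summit was 22221.5 bp, against 11915 bp for all coding genes. Leaving out each replicate gave 0 to 0 members with a strong promoter peak, 25 to 34 with a pooled one, 3 to 3 clusters with a strong summit, and a median distance of 13453.5 to 13830.5 bp. No paired analysis was possible because the samples form 1 group. Peaks without read counts leave depth unknown, so the absence of a listed peak is not a measured absence of binding.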
